A study of Mus musculus with 16 samples.

Results

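The comparison of bleomycin with saline in male mice drew on 8 of the 16 libraries of the study. They were the 4 libraries whose columns in the deposited count table carry the labels for bleomycin and male and the 4 that carry those for saline and male, with all genes of the table. Each library was made from the total RNA of bronchoalveolar lavage cells, the cells washed out of the airspaces of the lung. The mice were males aged 8 to 10 weeks, and the strain is given as C57BL/6 in the design text and as C56BL/6J in the sample labels. Bleomycin, a DNA-damaging drug used to bring about lung inflammation and fibrosis in rodents, had been given by the oropharyngeal route at 4 U/kg, and the controls had received saline by the same route. The design text gives 14 days for the treatment. No allele or other agent is named for either group, and none is said to be shared by both. The remaining 8 libraries, 4 of saline females and 4 of bleomycin females under the same treatment, served to estimate the spread and to test whether a change differed between the sexes, which is the question the title of the series names.

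In the undisturbed mouse airspace most free cells are resident alveolar macrophages, long-lived phagocytes that take up spent surfactant and renew themselves in place. After injury, monocytes leave the blood and turn into macrophages that carry scavenger receptors, lysosomal enzymes, matrix-degrading proteases and growth factors, and lymphocytes and granulocytes enter beside them. Interferons, lipid loading, oxidants and DNA damage each switch on their own set of target genes in such cells.

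Total counts were 16471022 to 19207944 in the saline males and 21240382 to 24225885 in the bleomycin males. The share of counts from mitochondrial genes was 1.37% to 1.67% in saline and 2.23% to 2.35% under bleomycin, and the 10 most abundant genes of a library took 7.39% to 8.37% and 14.1% to 15.4% of its counts. Values are CPM, counts scaled to the library total times edgeR's TMM factor, and the libraries stand in the order C70, C71, C72, C73 for saline and C33, C65, C66, C67 for bleomycin throughout. On the first principal component of log2 CPM, which held 86.1% of the variance, the saline males lay at -96.2 to -80.3 and C65, C66 and C67 at 92.8 to 107.3. C33 lay at 63.4 and thus stood apart from its group toward saline. Among the saline males C71 stood apart, with the highest value on that component and higher levels of several marker lists, as the plot of marker levels shows. The labels do not say that each library came from a separate animal, so p-values measure only the spread between these samples, which may in part be technical.

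More of the genes that could be tested were called than were not. Of 15257 genes that passed the filter on low counts, out of 54532, 4810 were called higher under bleomycin (31.5% of those tested) and 3804 lower (24.9%) at an adjusted p below 0.05 (edgeR's quasi-likelihood test with Benjamini-Hochberg adjustment). With library totals in place of TMM factors the split turned, with 3416 genes higher and 6130 lower, so that 35.8% of the calls lay on the higher side against 55.8% in the main fit. The median of all log2 fold changes was 0.02 with TMM factors and -0.21 with library totals, and every fold change below is relative to that scale. The larger shifts were mostly rises, with 1228 called genes at least 8-fold higher and 96 at least 8-fold lower by the fitted fold change. Of the genes tested, 141 had no count in the saline males and more than 3 over the bleomycin males, and all 141 were called higher. Genes near 0 in saline pass the filter through other libraries alone and had to differ, so part of this imbalance was fixed in advance. The 4 bleomycin libraries and the 4 saline libraries did not overlap in 8300 genes (54.4%). That share, with the 31.5% higher and 24.9% lower, is the base for every count of list members below. Without C33 the counts were 4934 higher and 3993 lower, and without C71 they were 4702 and 3569.

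Resident alveolar macrophage genes were lower as a group under bleomycin, though unevenly. Of 24 listed markers, 15 fell, 4 rose and 5 did not pass the test, with a median log2 fold change of -0.52 against 0.02 over all genes tested. Lavage fluid holds a mixture of cells, so fewer cells of a type and less RNA per cell cannot be told apart in these bulk libraries. All 24 markers had a mean of at least 1 CPM in both groups, so the defining genes of these cells were present throughout. CPM is a share of the library. The monocyte and recruited macrophage markers summed to 2197 to 2704 CPM in saline and 12250 to 16960 CPM under bleomycin. The epithelial markers went the other way, with sums of 925.6 to 974.9 CPM in saline and 363.3 to 453.2 CPM under bleomycin. For the fibroblast and endothelial list and the red blood cell list the sums of the groups overlapped. The part of such shifts in these falls was not tested. Fabp1, which encodes a fatty acid binding protein, stood at 123, 81.8, 93.6 and 90.2 CPM in saline and 3.45, 1.26, 2.58 and 1.75 CPM under bleomycin (log2 fold change -5.41, SE 0.24, adjusted p = 3.86e-12; SE is the standard error). Every bleomycin library was far below every saline library, and C33 was the highest of the 4. Krt79, a keratin gene, was at 533, 638, 624 and 504 CPM in saline and 40.0, 11.6, 24.4 and 17.2 CPM under bleomycin (log2 fold change -4.62, SE 0.35, adjusted p = 4.19e-09). Cidec, which codes for a lipid droplet protein, was at 364, 362, 362 and 379 CPM in saline and 73.9, 30.1, 53.2 and 36.1 CPM under bleomycin (log2 fold change -2.92, SE 0.27, adjusted p = 6.19e-08). In both genes C33 again kept the highest bleomycin value and C65 the lowest, with no overlap between the groups.

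The genes that identify alveolar macrophages most often in the laboratory moved less. Siglecf, the sialic acid receptor used to gate these cells, was at 519.5, 579, 563 and 542 CPM in saline and 232, 114, 182 and 139.6 CPM under bleomycin (log2 fold change -1.72, SE 0.17, adjusted p = 1.25e-07). Pparg, the nuclear receptor needed for their formation, was at 206, 177, 172 and 194 CPM in saline and 119, 121, 117 and 131 CPM under bleomycin (log2 fold change -0.62, SE 0.15, adjusted p = 0.00166). Both groups of libraries stayed apart in these genes, and the 4 bleomycin values of Pparg lay close together. Chil3, a chitinase-like protein that is abundant in these cells, was at 12418, 13384, 13305 and 12487 CPM in saline and 10836, 12327, 16786 and 9129.7 CPM under bleomycin (log2 fold change -0.07, SE 0.22, adjusted p = 0.796). The groups overlapped, with C66 the highest and C67 the lowest of all 8. The members that rose were Fabp4, another fatty acid binding protein gene, with a log2 fold change of 0.78 (SE 0.16), the transcription factor genes Bhlhe41 at 0.52 (SE 0.13) and Bhlhe40 at 0.33 (SE 0.10), and Lpl, a lipase gene, at 0.37 (SE 0.11). With library totals alone, 2 of the 24 rose and 16 fell, and the call of Lpl was lost.

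**Figure D1:**
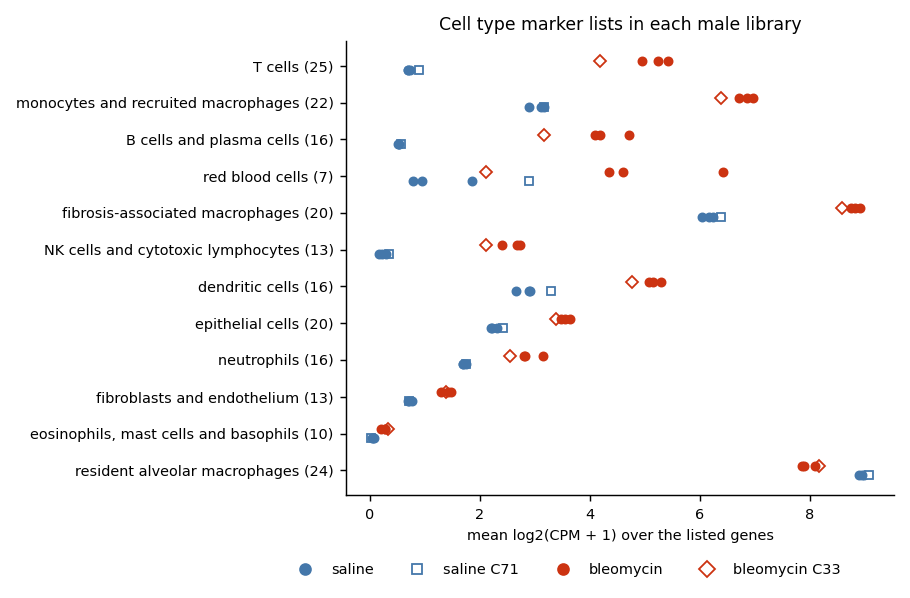
Mean log2(CPM + 1) over the genes of each of 12 marker lists (x axis, number of listed genes in parentheses) in the 8 male libraries, with C71 (open square) and C33 (open diamond) marked. The bleomycin libraries lie above the saline libraries in every list but the resident alveolar macrophage list, where they lie below, and the red blood cell list, where C33 lies among the saline libraries.

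Genes of monocytes and recruited macrophages were higher under bleomycin in all 22 listed members, with a median log2 fold change of 5.44, and 16 of the 22 had a mean of at least 1 CPM in saline. C1qb, a chain of the first complement component and a marker of tissue macrophages, was at 2.02, 3.21, 3.33 and 3.29 CPM in saline and 517, 834, 872 and 645 CPM under bleomycin (log2 fold change 7.92, SE 0.25, adjusted p = 7.57e-14). Ccr2, the receptor that draws monocytes out of the blood, was at 11.6, 18.5, 11.4 and 15.9 CPM in saline and 146, 164, 204 and 145 CPM under bleomycin (log2 fold change 3.52, SE 0.17, adjusted p = 1.53e-11). The groups were far apart in both genes, and the 4 bleomycin libraries lay within a factor that was small beside the gap. Ly6c2, which marks classical monocytes, had no count in 3 saline libraries and a single count in C73 (0.0484 CPM), against 18.0, 42.4, 32.2 and 36.4 CPM under bleomycin. Plac8, another monocyte gene, had no count in the saline males and was at least 215-fold higher under bleomycin, taking 3 counts over the saline group as the floor. The smallest rises in the list were those of Vcan, with a log2 fold change of 0.56 (SE 0.22), and Cd14, with 0.39 (SE 0.15). With library totals alone 20 of the 22 rose and none fell.

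The fibrosis-associated macrophage list, which holds genes described in macrophages of scarring lungs, had 15 of 20 members higher, 1 lower and 4 that did not pass, with a median log2 fold change of 2.49. Arg1, which encodes arginase, was at 0.155, 0.744, 1.81 and 0.581 CPM in saline and 47.0, 134, 173 and 72.97 CPM under bleomycin (log2 fold change 6.99, SE 0.55, adjusted p = 6.19e-09). Mmp14, a membrane-bound metalloprotease that acts on collagen, was at 1.65, 2.86, 2.11 and 1.599 CPM in saline and 181, 212, 214 and 245 CPM under bleomycin (log2 fold change 6.70, SE 0.20, adjusted p = 6.19e-14). Arg1 was low in C33 and C67 and high in C65 and C66 within the bleomycin group, whereas Mmp14 was close to level across it. Pdgfa and Pdgfb, ligands for receptors on fibroblasts, had log2 fold changes of 5.45 (SE 0.38) and 2.47 (SE 0.23). Trem2, a lipid-sensing receptor, was at 42.4, 56.6, 46.3 and 47.0 CPM in saline and 383, 496, 489 and 400.1 CPM under bleomycin (log2 fold change 3.20, SE 0.13, adjusted p = 1.85e-12), with the groups well apart. Tgfb1, the best known fibrogenic cytokine gene, was at 359.6, 407, 325 and 332 CPM in saline and 299, 364, 362 and 317 CPM under bleomycin (log2 fold change -0.09, SE 0.12, adjusted p = 0.576), and its groups overlapped. Cd9 and Lgals3, which are often named together with Trem2, did not pass either. Cd9 was at 2302, 2568, 2486 and 2522 CPM in saline and 2542, 2508, 2484 and 2312 CPM under bleomycin, and Lgals3 had a log2 fold change of 0.27 (SE 0.13). Il1rn, the interleukin-1 receptor antagonist, was the member called lower at -0.31 (SE 0.10), a call that was lost without C65, and with library totals 4 members fell in place of 1.

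**Figure D2:**
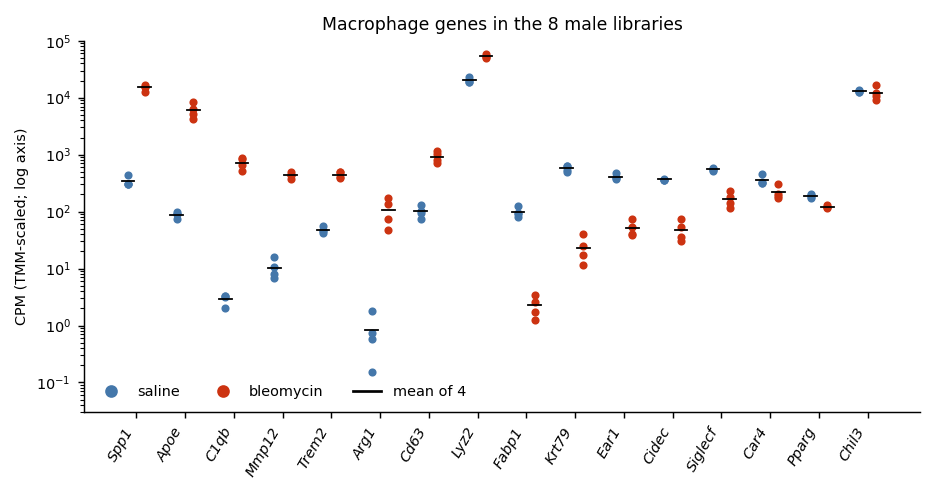
CPM of 16 macrophage genes (log axis) in each of the 4 saline and 4 bleomycin male libraries, with the mean of each group as a bar. Spp1 to Lyz2 lie higher under bleomycin and Fabp1 to Pparg lower with no overlap, although C33 comes close to saline in Car4, while the groups overlap in Chil3, at 9129.7 to 16786 CPM under bleomycin.

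Lymphocyte genes were prominent among the largest rises. Of the 15 protein-coding genes with the largest fitted rises and at least 20 CPM, 4 were on the T cell list, 3 on the B cell list and 2 on the monocyte list, and the other 6 were Cmah, Igfbp4, Gimap1, Ms4a4b, Satb1 and Ablim1. Of 25 T cell genes 24 rose, with a median log2 fold change of 7.07. Only 4 of the 25 had a mean of at least 1 CPM in saline, and a gene near 0 there passes the filter through the bleomycin libraries alone and had to differ. All 12 tested genes of NK cells and cytotoxic lymphocytes were higher, and so were 14 of 15 tested B cell genes, 8 of which had no count in the saline males. Only 1 of the 12 and 1 of the 15 had a mean of at least 1 CPM in saline. Their counts were thus also largely fixed in advance. Over all genes tested 31.5% were higher. Cd3g, a chain of the T cell receptor complex, was at 0.0517, 0.172, 0 and 0.0969 CPM in saline and 16.9, 46.8, 33.8 and 38.3 CPM under bleomycin (log2 fold change 8.67, SE 0.57, adjusted p = 6.22e-10). Lef1, a transcription factor gene of T cells, was at 0, 0.114, 0 and 0 CPM in saline, which is 2 counts in C71, and 10.3, 59.2, 28.6 and 35.9 CPM under bleomycin. Cd79b, part of the B cell receptor, and Pou2af1, a B cell co-activator gene, had no count in the saline males and were at least 552-fold and 606-fold higher under bleomycin. Cd79b stood there at 6.55, 36.8, 23.9 and 17.7 CPM and Pou2af1 at 7.86, 38.5, 21.8 and 25.02 CPM. In each of these genes C33 was the lowest bleomycin library and C65 the highest. The level of the whole T cell list, as mean log2(CPM + 1), was 4.18 in C33 against 4.95 to 5.42 in C65, C66 and C67 and 0.69 to 0.89 in saline. Leaving out C33 changed none of the counts of these 3 lists. The part of these cells in the changes of genes outside the lists was not tested.

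Among the T cell genes were those of both main lineages. Cd8a, the co-receptor of cytotoxic T cells, was at 21.9, 42.0, 40.1 and 47.0 CPM under bleomycin and at or below 0.343 CPM in saline. Cd4, the co-receptor of helper T cells, was at 16.02, 35.4, 26.6 and 33.7 CPM against 0.098 to 0.687 CPM. Foxp3, the transcription factor gene of regulatory T cells, was at 1.03, 1.37, 0.98 and 1.26 CPM in saline and 4.15, 7.66, 7.40 and 7.07 CPM under bleomycin (log2 fold change 2.49, SE 0.33, adjusted p = 4.84e-06). Nkg7, a granule protein of cytotoxic cells, was at 8.82, 20.5, 14.99 and 18.9 CPM under bleomycin and at 0 to 0.103 CPM in saline. The granzyme genes Gzmb and Gzmk had no saline count and were at least 33.6-fold and 32.8-fold higher, though each stayed below 2 CPM in every bleomycin library. Cd2 went the other way, at 272, 258, 266 and 264 CPM in saline and 146, 102, 112 and 107 CPM under bleomycin (log2 fold change -1.18, SE 0.13, adjusted p = 3.22e-07), with the groups apart. Cd22, a B cell inhibitory receptor, was at 154, 165, 144 and 152 CPM in saline and 174, 148, 166 and 169 CPM under bleomycin (log2 fold change 0.09, SE 0.07, adjusted p = 0.277), with overlapping groups. Both Cd2 and Cd22 were thus present at more than 100 CPM in saline libraries in which the defining T cell marker Cd3e stood at or below 0.229 CPM and the B cell gene Cd79b had no count.

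Genes of other cells rose from a low base, with exceptions. Of 16 dendritic cell genes 14 rose, or 12 with library totals. Fscn1, an actin-bundling protein of mature dendritic cells, was at 6.62, 19.9, 8.48 and 8.86 CPM in saline and 159, 358, 313 and 322 CPM under bleomycin (log2 fold change 4.72, SE 0.33, adjusted p = 1.23e-09). Xcr1, a receptor of cross-presenting dendritic cells, was at 0.259, 0.801, 0.343 and 0.0969 CPM in saline and 12.1, 13.7, 10.9 and 10.9 CPM under bleomycin (log2 fold change 5.01, SE 0.34, adjusted p = 1.09e-09). The transcription factor gene Batf3 and the receptor gene Clec9a, both of the same dendritic cells as Xcr1, did not pass, with log2 fold changes of 0.30 (SE 0.27) and 0.07 (SE 0.13). The groups were apart in Fscn1 and Xcr1, and C71 held the highest saline value of Fscn1 and of Ccr7, the receptor that guides these cells to lymph nodes, which had a log2 fold change of 4.10 (SE 0.30). Of 16 neutrophil genes 11 could be tested, and 8 rose (72.7%), 2 fell (18.2%) and 1 did not pass. Over all genes tested 31.5% rose and 24.9% fell. S100a8, part of the calprotectin complex, was at 2.84, 3.32, 2.94 and 2.23 CPM in saline and 34.5, 64.5, 62.4 and 39.8 CPM under bleomycin (log2 fold change 4.15, SE 0.27, adjusted p = 4.84e-10). The granule genes Camp, Ngp, Elane and Mpo and the surface marker Ly6g had at most 4 counts over the bleomycin group, and Trem1 and Csf3r fell by 0.81 and 0.53 on the log2 scale. Eosinophil genes were barely detected: Ccr3 and Il5ra had no saline count and were at least 19.3-fold and 12.8-fold higher, below 1 CPM in every library.

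Epithelial genes split. Of 20 listed, 15 rose, 3 fell and 2 did not pass. Krt8, a keratin of simple epithelium, was at 0.879, 1.09, 0.931 and 1.11 CPM in saline and 16.6, 16.4, 16.5 and 25.1 CPM under bleomycin (log2 fold change 4.21, SE 0.18, adjusted p = 3.02e-12). Sftpd, a surfactant protein, was at 0.62, 0.515, 0.588 and 0.388 CPM in saline and 4.23, 4.72, 4.82 and 7.43 CPM under bleomycin (log2 fold change 3.32, SE 0.29, adjusted p = 3.17e-08). Epcam, an epithelial adhesion molecule that alveolar macrophages of mice are also known to express, was at 119, 88.4, 126 and 144 CPM in saline and 20.6, 21.4, 17.9 and 18.6 CPM under bleomycin (log2 fold change -2.60, SE 0.15, adjusted p = 1.47e-10). Krt19 and Tppp3 fell with it, by 2.22 and 2.005 on the log2 scale, from saline levels above 200 CPM. Of 13 fibroblast and endothelial genes 6 could be tested and 5 rose; Col1a1, the main fibrillar collagen gene, had no saline count and stood at 1.18, 0.42, 0.397 and 1.66 CPM under bleomycin, at least 23.7-fold higher. With at least 1 CPM required in 4 libraries, 2 of those 5 rises remained in the test.

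Haemoglobin genes differed most between libraries of one group. Hbb-bs, an adult beta globin, was at 3.26, 80.4, 3.73 and 19.6 CPM in saline and 32.5, 2954, 626 and 455 CPM under bleomycin (log2 fold change 5.26, SE 1.29, adjusted p = 0.0021). C65 was the highest bleomycin library by far and C33 the lowest, C71 was the highest saline library, and the groups overlapped because C33 lay below C71. All 5 tested red blood cell genes were called and in none were the groups apart, and with limma voom 2 of the 5 calls were kept. The globin genes are near-identical pairs, so the split of reads within a pair is uncertain. Among protein-coding genes with a mean of at least 20 CPM under bleomycin, the 10 with the largest SD of log2 CPM over the bleomycin males were the globin genes Hba-a1, Hba-a2, Hbb-bs and Hbb-bt, the heme synthesis gene Alas2 of red cell precursors, the B and T cell genes Cd79a, Cd79b and Lef1, and Igfbp4 and Gapdh. Gapdh, a glycolytic enzyme gene with many near-identical pseudogenes that can share its reads, was at 11.996, 163, 11.8 and 12.9 CPM in saline and 177, 22.6, 168 and 4.92 CPM under bleomycin (log2 fold change 0.91, SE 0.91, adjusted p = 0.406). It was high in C71, C33 and C66 alone, and without C71 its log2 fold change of 2.93 was called, so its value is uncertain.

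The largest falls among protein-coding genes with at least 20 CPM were mostly not on the list of alveolar macrophage markers. Dnah11, an axonemal dynein heavy chain gene on chromosome 12 (117877982 to 118199043, GRCm38), was at 76.9, 79.5, 106 and 111 CPM in saline and 2.92, 0.472, 0.496 and 1.03 CPM under bleomycin (log2 fold change -6.19, SE 0.42, adjusted p = 9.21e-10). C33 kept the highest of the 4 bleomycin values, at 2.92 CPM, and the other three lay near or below 1 CPM. Coro6, a coronin gene on chromosome 11, was at 192, 167, 194 and 179 CPM in saline and 14.3, 4.46, 8.14 and 5.82 CPM under bleomycin (log2 fold change -4.47, SE 0.31, adjusted p = 1.55e-09). Kcna3, a voltage-gated potassium channel gene of leukocytes on chromosome 3, was at 284, 219.6, 237 and 305 CPM in saline and 44.5, 11.1, 17.8 and 23.7 CPM under bleomycin (log2 fold change -3.42, SE 0.31, adjusted p = 3.84e-08). Kcnh4, another potassium channel gene, was at 34.5, 39.4, 45.1 and 37.8 CPM in saline and 4.71, 2.05, 2.28 and 2.69 CPM under bleomycin (log2 fold change -3.72, SE 0.23, adjusted p = 2.98e-10). The groups did not overlap in any of these genes, but that was a condition for naming them and is not a result.

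Itgad, the integrin alpha D chain, was at 27.9, 20.8, 33.6 and 38.1 CPM in saline and 2.40, 2.67, 2.08 and 2.19 CPM under bleomycin (log2 fold change -3.68, SE 0.18, adjusted p = 1.91e-11). Here the 4 bleomycin libraries were level, C33 included. Tlr5, the receptor for bacterial flagellin, was at 52.5, 53.9, 45.4 and 55.3 CPM in saline and 9.52, 4.09, 5.51 and 3.805 CPM under bleomycin (log2 fold change -3.17, SE 0.22, adjusted p = 1.71e-09). Syne2, a nuclear envelope protein that anchors the nucleus to actin, was at 434, 386, 462 and 459.5 CPM in saline and 59.4, 23.9, 35.8 and 32.7 CPM under bleomycin (log2 fold change -3.52, SE 0.24, adjusted p = 1.33e-09). Rab44, a Rab GTPase gene of blood cells, was at 485, 419.9, 474 and 487 CPM in saline and 62.9, 19.2, 48.3 and 41.3 CPM under bleomycin (log2 fold change -3.44, SE 0.27, adjusted p = 6.27e-09). C33 was the highest and C65 the lowest bleomycin library in Syne2 and Rab44. Acaa1b, a peroxisomal thiolase gene, had a log2 fold change of -3.996 (SE 0.20), Cpne5 of -3.88 (SE 0.21), Tppp of -4.27 (SE 0.42), Spaca6 of -3.30 (SE 0.32) and Ear1, an eosinophil-associated ribonuclease gene that alveolar macrophages express, of -2.98 (SE 0.23).

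By amount, the largest gains and losses of mean CPM were ranked among called protein-coding genes whose groups did not overlap. Lyz2, which encodes lysozyme, rose from 19242, 23284, 20549.6 and 18950.5 CPM to 54886, 50458, 52246 and 57470.1 CPM (log2 fold change 1.39, SE 0.12, adjusted p = 1.41e-08), the largest gain in CPM among protein-coding genes. Spp1, the secreted phosphoprotein osteopontin, was at 310.4, 432, 306 and 311 CPM in saline and 12755, 15668, 16746 and 15247 CPM under bleomycin (log2 fold change 5.47, SE 0.19, adjusted p = 2.29e-13), the next largest gain. Psap, the precursor of the lysosomal saposins, was at 5117, 5817, 4882 and 5023 CPM in saline and 14080.0, 17861, 17201 and 15861 CPM under bleomycin (log2 fold change 1.64, SE 0.11, adjusted p = 1.05e-09). Ctss, a lysosomal cysteine protease, was at 3031, 3329, 3145 and 3037 CPM in saline and 7699, 10438, 9853 and 9071 CPM under bleomycin (log2 fold change 1.56, SE 0.12, adjusted p = 7.48e-09). The gene mt-Co1, a mitochondrially encoded oxidase subunit, was at 6113, 7243, 5879.5 and 5789 CPM in saline and 11796, 11243, 12468 and 12488 CPM under bleomycin (log2 fold change 0.94, SE 0.10, adjusted p = 4.73e-07). Groups were apart in all of these because only such genes were ranked. The bleomycin libraries lay within a narrow range for Lyz2 and mt-Co1. The 8 largest losses in CPM were those of Flna, Lrp1, Iqgap1, Abcg1, Vim, Ahnak, Ear2 and Myh9. Flna, an actin cross-linker, was at 3968, 3533, 3819 and 4195 CPM in saline and 2047, 1337, 1455 and 1458 CPM under bleomycin (log2 fold change -1.30, SE 0.12, adjusted p = 3.68e-08). Lrp1, an endocytic receptor, was at 3375, 3799.5, 3336 and 3486 CPM in saline and 2875, 1748, 1957 and 1905 CPM under bleomycin (log2 fold change -0.72, SE 0.14, adjusted p = 0.000343). Ahnak, a large scaffold protein, was at 1766, 1189, 1443 and 1885 CPM in saline and 708, 461, 504 and 555 CPM under bleomycin (log2 fold change -1.50, SE 0.15, adjusted p = 1.78e-07). Abcg1, the transporter that exports cholesterol from alveolar macrophages, was at 2254, 2212, 2078 and 2329 CPM in saline and 1324, 989.5, 1004 and 1164 CPM under bleomycin (log2 fold change -0.99, SE 0.12, adjusted p = 1.64e-06). Vim, Iqgap1, Ear2 and Myh9 fell by 0.51, 0.82, 1.12 and 0.62 on the log2 scale. In Flna, Lrp1 and Iqgap1, C33 was the bleomycin library closest to saline.

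Chemokine genes rose in 13 of 15 tested members and fell in none, with a median log2 fold change of 2.28; 9 of the 15 had a mean of at least 1 CPM in saline. Cxcl16, a ligand for T cells that carry Cxcr6, was at 5.33, 11.3, 6.03 and 6.35 CPM in saline and 95.6, 158, 136 and 119 CPM under bleomycin (log2 fold change 4.14, SE 0.22, adjusted p = 4.15e-11). Ccl9, a ligand of Ccr1, was at 13.7, 36.3, 21.3 and 13.03 CPM in saline and 275, 344, 334 and 324 CPM under bleomycin (log2 fold change 3.93, SE 0.27, adjusted p = 1e-09). C71 held the highest saline value of both genes, still far below every bleomycin library. Ccl2, the main ligand of Ccr2, was at 0.103, 0.114, 0.245 and 0.242 CPM in saline and 2.44, 8.13, 6.999 and 6.22 CPM under bleomycin (log2 fold change 5.002, SE 0.57, adjusted p = 7.06e-07). Its relatives Ccl7 and Ccl12 had log2 fold changes of 3.92 (SE 0.60) and 4.07 (SE 0.60). Cxcl9 and Cxcl10, which interferons induce and which bind Cxcr3, were at 6.24, 6.503, 5.66 and 7.21 and 6.02, 6.40, 4.22 and 4.39 CPM under bleomycin, with log2 fold changes of 1.53 (SE 0.25) and 1.95 (SE 0.31). The neutrophil attractants Cxcl2 and Cxcl3 did not pass: Cxcl2 was at 2.33, 5.61, 3.14 and 1.84 CPM in saline and 1.05, 2.41, 26.5 and 1.97 CPM under bleomycin (log2 fold change 1.31, SE 0.71, adjusted p = 0.128). C66 alone was high and the other bleomycin libraries lay within the saline range or below it.

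On the receptor side, 9 of 12 tested genes rose (75%) and 3 fell (25%), against 31.5% and 24.9% of all genes tested. The groups did not overlap in any of the 12, nor did they in 54.4% of all genes tested. Of the 12, 7 had a mean of at least 1 CPM in saline. Cmklr1, the chemerin receptor, was at 0.207, 0.172, 0.294 and 1.02 CPM in saline and 44.9, 48.4, 62.5 and 61.1 CPM under bleomycin (log2 fold change 6.94, SE 0.31, adjusted p = 4.05e-12). Cxcr3, a receptor of activated T cells, was at 6.85, 12.3, 9.53 and 12.8 CPM against 0 to 0.194 CPM. The 3 that fell were receptors for formyl peptides and for C5a. Fpr2, a formyl peptide receptor, was at 175, 164, 155 and 169.8 CPM in saline and 32.96, 22.4, 32.5 and 33.4 CPM under bleomycin (log2 fold change -2.45, SE 0.23, adjusted p = 5.71e-08). Fpr1, its close relative, was at 381, 344, 338 and 350.0 CPM in saline and 146, 94.5, 137 and 128 CPM under bleomycin (log2 fold change -1.48, SE 0.19, adjusted p = 3.35e-06). C5ar1, the C5a receptor, had a log2 fold change of -0.71 (SE 0.18).

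Growth factor genes and their receptors moved in both directions, with 11 of 19 higher (57.9%) and 4 lower (21.1%). Over all genes tested the shares were 31.5% and 24.9%. The median log2 fold change of the list was 0.67. Csf1, the growth factor on which macrophages depend, was at 0.879, 0.859, 0.98 and 0.872 CPM in saline and 13.5, 20.4, 21.0 and 18.8 CPM under bleomycin (log2 fold change 4.35, SE 0.21, adjusted p = 1e-11). Its receptor Csf1r, on the monocyte list, had a log2 fold change of 0.96 (SE 0.09). Hbegf, an EGF receptor ligand, was at 0.0517, 0.172, 0.147 and 0.194 CPM in saline and 2.31, 4.09, 2.78 and 4.70 CPM under bleomycin (log2 fold change 4.56, SE 0.40, adjusted p = 2.78e-08). In both genes the groups were far apart. Gdf15, a stress-induced cytokine, had a log2 fold change of 2.07 (SE 0.26) and Vegfa, which acts on endothelium, of 1.90 (SE 0.32). Tgfb2 fell, at 9.31, 5.95, 8.97 and 11.3 CPM in saline and 4.76, 1.52, 1.34 and 1.43 CPM under bleomycin (log2 fold change -1.96, SE 0.32, adjusted p = 5.97e-05), with C33 the bleomycin library closest to saline. The receptor gene Tgfbr1 fell by 0.41 on the log2 scale, whereas Tgfb3 rose to 0.349, 1.47, 0.397 and 1.07 CPM. Csf2ra and Csf2rb, the receptor chains for GM-CSF, on which alveolar macrophages depend, had log2 fold changes of -0.24 (SE 0.07) and -0.30 (SE 0.11), and the call of Csf2rb was lost without any one of C71, C65 and C66.

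Cytokine genes and their receptors had 11 of 20 members higher (55%) and 4 lower (20%), against 31.5% and 24.9% of all genes tested. Their median log2 fold change was 0.46. Il1rl1, the receptor for interleukin-33, was at 0.259, 0.458, 0.539 and 0.242 CPM in saline and 5.76, 11.2, 9.38 and 9.94 CPM under bleomycin (log2 fold change 4.58, SE 0.36, adjusted p = 7e-09). Il1r2, a decoy receptor for interleukin-1, was at 0.155, 0.343, 0.049 and 0.194 CPM in saline and 3.19, 11.01, 12.4 and 5.28 CPM under bleomycin (log2 fold change 5.41, SE 0.57, adjusted p = 2.99e-07). C33 was the lowest bleomycin library in both, with no overlap. Nlrp3, a sensor of the inflammasome, was at 62.3, 59.1, 58.2 and 83.3 CPM in saline and 29.5, 21.6, 35.2 and 30.8 CPM under bleomycin (log2 fold change -1.16, SE 0.14, adjusted p = 1.87e-06). Tnfsf13b, which encodes the B cell survival factor BAFF, was at 14.3, 12.02, 17.4 and 18.3 CPM in saline and 8.12, 4.04, 5.31 and 3.94 CPM under bleomycin (log2 fold change -1.53, SE 0.21, adjusted p = 8.4e-06). Tnf did not pass, at 6.00, 10.1, 6.32 and 9.69 CPM in saline and 6.16, 4.30, 9.38 and 5.82 CPM under bleomycin (log2 fold change -0.32, SE 0.25, adjusted p = 0.288), and its groups overlapped. Il6 and Il10 had 24 and 11 counts over the 4 bleomycin libraries and were below the filter.

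Among proteases and their inhibitors 12 of 16 rose and 2 fell, and among matrix and adhesion genes 14 of 17 rose and 2 fell, with median log2 fold changes of 1.35 and 1.15. Adam8, a membrane metalloprotease of leukocytes, was at 2.22, 4.87, 3.63 and 2.71 CPM in saline and 84.0, 97.6, 136 and 113 CPM under bleomycin (log2 fold change 5.01, SE 0.22, adjusted p = 3.13e-12). Mmp2 and Mmp13, which cleave basement membrane and fibrillar collagen, were at 6.81, 8.34, 7.10 and 10.97 and 2.75, 0.839, 3.52 and 3.58 CPM under bleomycin, with saline values of at most 0.801 and 0.155 CPM. Thbs1, a matrix protein that binds latent TGF-beta, was at 1.45, 1.72, 2.16 and 1.599 CPM in saline and 52.0, 145, 198 and 103 CPM under bleomycin (log2 fold change 6.16, SE 0.43, adjusted p = 1.36e-09). Ecm1 was at 10.96, 18.2, 12.7 and 13.2 CPM in saline and 232, 315, 336 and 232 CPM under bleomycin (log2 fold change 4.34, SE 0.21, adjusted p = 1.36e-11). The range within the bleomycin group was wide for Thbs1, from 52.0 CPM in C33 to 198 CPM in C66, and narrow for Ecm1. Slpi, a secreted protease inhibitor, fell by 1.14 and Plaur, the urokinase receptor, by 0.84 on the log2 scale, while its ligand Plau rose by 1.53. Of the adhesion genes Cd44, the hyaluronan receptor, was at 1848, 1781, 1679 and 1783 CPM in saline and 1275, 914, 1112 and 1019 CPM under bleomycin (log2 fold change -0.72, SE 0.11, adjusted p = 2.96e-05). Itgal was at 728, 691, 705 and 777 CPM in saline and 505, 331, 382 and 407 CPM under bleomycin (log2 fold change -0.84, SE 0.10, adjusted p = 1.88e-06). Both were lower in every bleomycin library.

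Receptors and bridging molecules for the uptake of dead cells and modified lipoprotein rose in 11 of 16 and fell in 3, with a median log2 fold change of 1.42. Mfge8, a bridge between dying cells and integrins, was at 9.51, 14.996, 10.9 and 10.6 CPM in saline and 419, 518, 556 and 540.3 CPM under bleomycin (log2 fold change 5.47, SE 0.19, adjusted p = 2.11e-13). Msr1, a class A scavenger receptor, was at 17.2, 14.9, 16.2 and 17.8 CPM in saline and 285, 317, 296 and 293 CPM under bleomycin (log2 fold change 4.17, SE 0.11, adjusted p = 1.76e-14). Stab1, another scavenger receptor, was at 1.24, 1.66, 1.128 and 1.21 CPM in saline and 48.7, 41.9, 60.2 and 38.0 CPM under bleomycin (log2 fold change 5.17, SE 0.22, adjusted p = 2.78e-12). The 4 bleomycin values of Msr1 lay within 285 to 317 CPM. The ligand Gas6 rose, with a log2 fold change of 5.45 (SE 0.31), while its receptors Axl and Mertk fell by 0.32 and 0.43 on the log2 scale and the related ligand Pros1 fell by 0.68. With library totals alone 10 of the 16 rose and 4 fell.

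Of 11 tested complement genes 6 rose (54.5%), 1 fell (9.09%) and 4 did not pass, against 31.5% higher and 24.9% lower over all genes tested. Of the 11, 8 had a mean of at least 1 CPM in saline. C3ar1, the C3a receptor, was at 1.76, 3.21, 1.91 and 3.003 CPM in saline and 91.5, 109, 133 and 106 CPM under bleomycin (log2 fold change 5.48, SE 0.19, adjusted p = 1.62e-13). C4b, a component of the classical pathway, was at 1.29, 1.14, 1.57 and 1.599 CPM in saline and 64.3, 48.9, 71.6 and 48.3 CPM under bleomycin (log2 fold change 5.36, SE 0.43, adjusted p = 9e-09). The groups were far apart in both. C3 itself was at 215, 264, 192 and 199.7 CPM in saline and 320.0, 142, 185 and 294 CPM under bleomycin (log2 fold change 0.11, SE 0.20, adjusted p = 0.639) and overlapped. The receptor gene C5ar2 fell by 0.63 on the log2 scale.

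Lysosomal genes rose in 21 of 25 members, with a median log2 fold change of 0.72, and all 25 were above 1 CPM in saline. The cathepsin gene Ctsl was at 192, 224, 230.0 and 199 CPM in saline and 745, 912, 1024 and 902 CPM under bleomycin (log2 fold change 2.08, SE 0.13, adjusted p = 3.96e-10). The groups were apart, with C33 the lowest and C66 the highest bleomycin library. Mcoln1, the calcium channel of lysosomes, fell by 0.40 on the log2 scale. Tfeb, the transcription factor that drives lysosomal genes, had a log2 fold change of -0.18 (SE 0.07), a call that was lost without each of C70, C71, C73, C33, C65 and C67. TFEB binds the sequence TCACGTGA, which reads the same on both strands. In the RefSeq table of promoters (GRCm38.p6, 250 bases before to 50 bases after each start site, 300 in all), 5 of 26 promoters of 20 lysosomal members held it (19.2%), against 0.974% of all 32851 promoters. The promoter of Ctsd, the aspartic protease gene with the largest gain in CPM among the lysosomal members after Psap, is shown 5′ to 3′ because it holds the match at 99 bases before the start (chr7:142387778-142388077, minus strand, match in capitals). Ctsd itself was at 3249, 4216, 3339 and 3285 CPM in saline and 11788, 14050.0, 13379 and 12891 CPM under bleomycin (log2 fold change 1.89, SE 0.14, adjusted p = 2.63e-09).
Ctsd: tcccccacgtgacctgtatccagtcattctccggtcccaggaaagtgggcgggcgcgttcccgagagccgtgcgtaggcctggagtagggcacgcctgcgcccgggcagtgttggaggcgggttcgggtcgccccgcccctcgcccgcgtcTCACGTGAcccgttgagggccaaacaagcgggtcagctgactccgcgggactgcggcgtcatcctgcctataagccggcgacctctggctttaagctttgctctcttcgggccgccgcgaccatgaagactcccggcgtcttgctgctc

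Cholesterol biosynthesis genes rose in 21 of 23 members and fell in none, with a median log2 fold change of 0.97. Idi1, an isomerase of the isoprenoid steps, was at 24.8, 25.9, 19.4 and 21.0 CPM in saline and 101.3, 78.4, 86.3 and 77.9 CPM under bleomycin (log2 fold change 1.92, SE 0.14, adjusted p = 3.14e-09). All bleomycin libraries were above all saline libraries, and C33, which was nearest to saline in the lymphocyte lists, held the highest value of Idi1. SREBP2, the factor that drives these genes, binds variants of TCACNCCAC, and 1 of 19 promoters of 16 members held that sequence on either strand (5.26%), against 1.24% of all promoters. That member was Hmgcs1, the synthase that feeds the pathway, which was at 106, 114, 100.6 and 102 CPM in saline and 273, 232, 275 and 228 CPM under bleomycin (log2 fold change 1.26, SE 0.10, adjusted p = 7.83e-09). Its promoter is printed with the match in capitals, 137 bases before the start (chr13:119690101-119690400, plus strand).
Hmgcs1: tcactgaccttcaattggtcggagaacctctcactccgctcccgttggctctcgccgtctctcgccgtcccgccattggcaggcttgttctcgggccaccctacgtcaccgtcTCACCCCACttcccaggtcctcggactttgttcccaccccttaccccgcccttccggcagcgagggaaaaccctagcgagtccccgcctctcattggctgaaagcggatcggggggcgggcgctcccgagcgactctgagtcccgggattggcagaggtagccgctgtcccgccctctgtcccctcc

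The list for cholesterol efflux and storage showed no common direction, with 4 of 12 higher, 4 lower (33.3% each, near the shares of all genes tested) and a median log2 fold change of -0.05; with library totals 1 rose and 7 fell. Abca1, an efflux transporter, was at 273, 295, 314 and 300.3 CPM in saline and 367, 307, 298 and 364 CPM under bleomycin (log2 fold change 0.18, SE 0.13, adjusted p = 0.273), and its groups overlapped. Soat1, which esterifies cholesterol for storage, rose by 0.67 and Nceh1, which releases it, fell by 0.61 on the log2 scale.

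Genes of fatty acid uptake, storage and oxidation fell more often than they rose, with 10 of 24 lower (41.7%) and 4 higher (16.7%). Over all genes tested the shares were 24.9% and 31.5%. The other 10 members did not pass, and the median log2 fold change was -0.17. With library totals 15 fell and 2 rose. Cpt1a, which admits fatty acids to the mitochondrion, was at 583, 571, 538 and 602 CPM in saline and 369, 253, 303 and 295 CPM under bleomycin (log2 fold change -0.91, SE 0.09, adjusted p = 2.55e-07). Ehhadh, a peroxisomal oxidation enzyme, was at 32.0, 27.8, 32.3 and 31.2 CPM in saline and 11.4, 7.55, 10.2 and 13.03 CPM under bleomycin (log2 fold change -1.54, SE 0.14, adjusted p = 3.62e-08). Both were lower in every bleomycin library. Fatty acid synthesis and desaturation genes rose in 8 of 14 (57.1%, against 31.5% of all genes tested). They fell in 2 (14.3%, against 24.9%), or in 5 with library totals. Scd1, a desaturase, was at 36.8, 51.9, 39.6 and 39.0 CPM in saline and 213, 213, 177 and 204 CPM under bleomycin (log2 fold change 2.27, SE 0.12, adjusted p = 5.74e-11). Fads1, another desaturase, was at 8.89, 14.2, 9.80 and 8.33 CPM in saline and 63.0, 74.2, 67.2 and 62.4 CPM under bleomycin (log2 fold change 2.70, SE 0.15, adjusted p = 7.28e-11), level across the 4 bleomycin libraries. Lpin1, a phosphatidate phosphatase, fell by 1.29 on the log2 scale, and Acaca and Acly, the first enzymes of synthesis, had log2 fold changes of 0.09 (SE 0.10) and -0.15 (SE 0.08) and did not pass.

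Glycolytic genes rose in 13 of 16, with a median log2 fold change of 0.86. The listed gene Aldoa was left out because its symbol is shared by several tested genes. A gene of that symbol held 78109 counts over the saline males and 95496 over the bleomycin males, not scaled to library totals. Slc2a1, the glucose transporter GLUT1, was at 15.7, 14.5, 13.8 and 18.0 CPM in saline and 52.3, 63.6, 56.4 and 52.96 CPM under bleomycin (log2 fold change 1.86, SE 0.10, adjusted p = 6.57e-11). Pgam1, a mutase, was at 88.5, 114, 106 and 96.5 CPM in saline and 255, 292, 284 and 277 CPM under bleomycin (log2 fold change 1.45, SE 0.10, adjusted p = 7.33e-10). Pfkp was the member that fell, at 254, 232, 245 and 273 CPM in saline and 150.2, 149, 148 and 148 CPM under bleomycin (log2 fold change -0.75, SE 0.07, adjusted p = 5.4e-08). Its paralogs Pfkl and Pfkm rose by 1.37 and 1.78 on the log2 scale. Of 20 nuclear genes of the respiratory chain and citric acid cycle 8 rose (40%, near the 31.5% of all genes tested) and 12 did not pass. None fell, against 24.9% of all genes tested, and the median log2 fold change was 0.24. With library totals 5 rose and 3 fell, and the median was 0.0016. Sdhb, a subunit of complex II, was at 67.3, 69.6, 72.8 and 66.4 CPM in saline and 115, 129, 119.9 and 122 CPM under bleomycin (log2 fold change 0.81, SE 0.08, adjusted p = 2.06e-07).

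**Figure D3:**
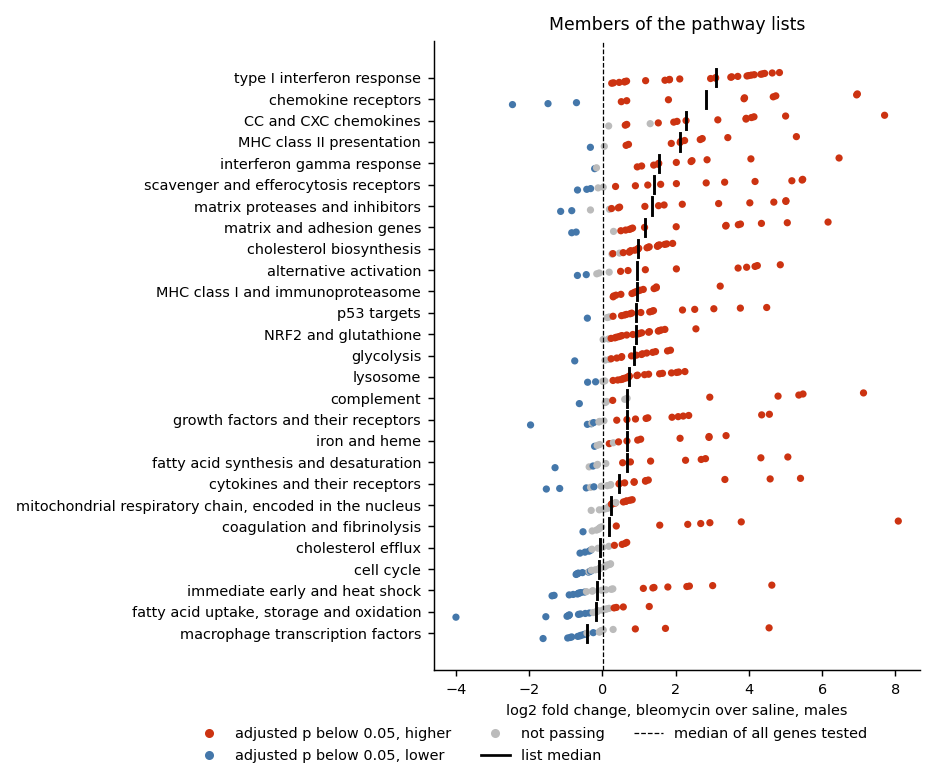
Log2 fold change of bleomycin over saline in males (x axis) for each tested member of the 27 pathway lists, colored by the call. The list median is a bar and the median of all genes tested a dashed line. All 26 members of the type I interferon list lie on the higher side, and no member of the cell cycle list was called higher.

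Interferon-induced genes rose together. All 26 members of the type I interferon list rose, with a median log2 fold change of 3.09, and 22 of them had a mean of at least 1 CPM in saline. Oas3, an enzyme that activates RNase L, was at 1.71, 1.49, 1.32 and 1.599 CPM in saline and 31.7, 32.4, 32.0 and 31.7 CPM under bleomycin (log2 fold change 4.38, SE 0.15, adjusted p = 1.49e-13). Irf7, the transcription factor gene that amplifies the response, was at 3.31, 5.09, 5.05 and 3.25 CPM in saline and 40.6, 49.8, 48.6 and 50.5 CPM under bleomycin (log2 fold change 3.51, SE 0.16, adjusted p = 8.2e-12). Ifit3 was at 0.724, 1.66, 1.23 and 1.07 CPM in saline and 25.2, 24.96, 19.8 and 23.7 CPM under bleomycin (log2 fold change 4.33, SE 0.28, adjusted p = 5.62e-10). C33 lay within the range of the other bleomycin libraries in Oas3 and was the highest of the 4 in Ifit3. The receptor-proximal factors Stat2 and Irf9 had smaller log2 fold changes of 0.30 (SE 0.10) and 1.18 (SE 0.07). With library totals alone 23 of the 26 rose.

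The response element through which type I interferon acts on its target genes was searched as GAAANNGAA on either strand. In the RefSeq promoters 13 of 21 promoters of 18 members held it (61.9%), against 8.56% of all promoters of the same length. Of the members with a match, Ifi44 and Rsad2 had the largest rises, and their promoters are printed 5′ to 3′ with the match, which lies on the opposite strand in both, in capitals. In Ifi44 (chr3:151749861-151750160, minus strand) the first base of the match lies 3 bases before the start site and in Rsad2 (chr12:26456403-26456702, minus strand) 119 bases before it.
Ifi44: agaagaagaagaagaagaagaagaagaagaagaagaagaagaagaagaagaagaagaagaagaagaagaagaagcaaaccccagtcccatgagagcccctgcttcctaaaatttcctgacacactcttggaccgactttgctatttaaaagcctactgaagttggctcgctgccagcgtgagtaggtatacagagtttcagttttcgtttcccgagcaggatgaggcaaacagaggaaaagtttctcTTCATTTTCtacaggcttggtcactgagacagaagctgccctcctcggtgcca
Rsad2: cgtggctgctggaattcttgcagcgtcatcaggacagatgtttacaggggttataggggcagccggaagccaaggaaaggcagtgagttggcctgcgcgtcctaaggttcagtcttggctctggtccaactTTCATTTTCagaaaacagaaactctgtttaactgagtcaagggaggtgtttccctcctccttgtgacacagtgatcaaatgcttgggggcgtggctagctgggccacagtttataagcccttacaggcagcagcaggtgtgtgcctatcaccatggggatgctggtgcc
Ifi44 was at 0.103, 0.114, 0 and 0 CPM in saline and 1.92, 1.52, 1.44 and 1.70 CPM under bleomycin (log2 fold change 4.83, SE 0.61, adjusted p = 8.46e-06). Rsad2, which encodes the antiviral enzyme viperin, was at 1.19, 1.66, 1.32 and 0.727 CPM in saline and 23.6, 28.9, 24.0 and 28.7 CPM under bleomycin (log2 fold change 4.43, SE 0.25, adjusted p = 1.18e-10). All bleomycin libraries stood above all saline libraries in both genes, and Ifi44 stayed below 2 CPM.

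Genes induced by interferon gamma rose in 11 of 13, with a median log2 fold change of 1.54. Iigp1, an immunity-related GTPase, was at 0, 0, 0.098 and 0.0484 CPM in saline and 2.36, 4.77, 3.23 and 5.37 CPM under bleomycin, where the saline values come from 3 counts in all. Gbp3, a guanylate-binding protein, was at 4.76, 5.90, 5.44 and 6.10 CPM in saline and 25.5, 32.5, 29.0 and 34.1 CPM under bleomycin (log2 fold change 2.45, SE 0.14, adjusted p = 9.11e-11). Gbp7 was called lower at -0.21 (SE 0.08), a call lost without each of C70, C73, C66 and C67 and with no filter on low counts. Cd274, which encodes PD-L1, did not pass, with a log2 fold change of -0.16 (SE 0.09), and Nos2 and Ido1 had 10 and 11 counts over the bleomycin group and were not tested.

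Antigen presentation genes rose in both classes. All 14 genes of MHC class I and the immunoproteasome rose, with a median log2 fold change of 0.93, and 10 of the 14 with library totals. B2m, the light chain of class I, was at 1022, 1369.9, 1050.0 and 965 CPM in saline and 2726, 3383, 2931 and 3189.9 CPM under bleomycin (log2 fold change 1.47, SE 0.12, adjusted p = 1.56e-08). Tap1, a peptide transporter, was at 40.0, 44.9, 41.1 and 45.9 CPM in saline and 95.7, 128, 105 and 129 CPM under bleomycin (log2 fold change 1.41, SE 0.10, adjusted p = 2.53e-09). Of 12 class II genes 10 rose. H2-Eb1, a class II beta chain, was at 82.1, 98.1, 110.4 and 118 CPM in saline and 512, 842, 699.9 and 650.2 CPM under bleomycin (log2 fold change 2.73, SE 0.18, adjusted p = 8.29e-10). H2-Ob, a modulator found in B cells, was at 0.31, 1.14, 0.833 and 0.678 CPM in saline and 17.9, 45.9, 24.3 and 28.4 CPM under bleomycin (log2 fold change 5.30, SE 0.45, adjusted p = 1.99e-08). C33 was the lowest and C65 the highest bleomycin library in these class II genes, as in the B cell list, whose level was 3.16 in C33, 4.09 to 4.72 in the other bleomycin libraries and 0.52 to 0.56 in saline; its part in the class II rises was not tested. H2-DMa was called lower at -0.33 (SE 0.13), and that call was lost without any one of the other male libraries than C66.

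Oxidant response genes that NRF2 controls rose in 18 of 20 and fell in none, with a median log2 fold change of 0.91, and 14 rose with library totals. Hmox1, which degrades heme, was at 235, 386, 189 and 244 CPM in saline and 324, 1626, 687 and 574 CPM under bleomycin (log2 fold change 1.61, SE 0.42, adjusted p = 0.00365), and its groups overlapped: C65, the library with the most haemoglobin, was the highest and C33 lay below C71. The red blood cell list had levels of 6.42 in C65, 2.11 in C33 and 2.902 in C71, and its part in the rise of Hmox1 was not tested. Fth1, the ferritin heavy chain, was at 4239, 5667, 4034 and 4139 CPM in saline and 11825, 17073, 15611 and 14512 CPM under bleomycin (log2 fold change 1.71, SE 0.17, adjusted p = 9.87e-08). Srxn1, a sulfiredoxin, was at 48.1, 72.3, 49.4 and 55.6 CPM in saline and 115, 131, 119.8 and 109 CPM under bleomycin (log2 fold change 1.07, SE 0.12, adjusted p = 9.73e-07), with no overlap in either. NRF2 binds TGACNNNGC, and on either strand 7 of 24 promoters of 16 members held it (29.2%), against 12.4% of all promoters. The promoter of Prdx1, a peroxiredoxin with the largest rise among members with a match, is printed because of that match, which lies 133 bases before the start on the opposite strand (chr4:116685349-116685648, plus strand, match in capitals).
Prdx1: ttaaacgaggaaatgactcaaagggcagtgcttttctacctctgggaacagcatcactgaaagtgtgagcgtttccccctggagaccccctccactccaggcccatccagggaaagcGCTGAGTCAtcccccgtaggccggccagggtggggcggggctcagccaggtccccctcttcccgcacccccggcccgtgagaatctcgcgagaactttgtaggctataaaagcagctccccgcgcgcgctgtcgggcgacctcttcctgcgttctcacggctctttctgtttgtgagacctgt
Prdx1 was at 680.5, 926, 691 and 669 CPM in saline and 1329, 2325, 1955 and 1624 CPM under bleomycin (log2 fold change 1.29, SE 0.18, adjusted p = 1.04e-05), with the groups apart and C65 the highest.

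Of 18 p53 target genes 15 rose and 1 fell, with a median log2 fold change of 0.93. Cdkn1a, the cell cycle inhibitor p21, was at 107, 102, 116 and 113 CPM in saline and 162, 187, 178 and 213 CPM under bleomycin (log2 fold change 0.76, SE 0.15, adjusted p = 0.000411). Ccng1, a cyclin, was at 166, 156, 149 and 163 CPM in saline and 248.5, 241, 233 and 278 CPM under bleomycin (log2 fold change 0.66, SE 0.10, adjusted p = 1.74e-05). Phlda3 and Mdm2 had log2 fold changes of 1.29 (SE 0.14) and 0.61 (SE 0.09). The groups did not overlap in any of these 4 genes. Btg2 fell by 0.41 on the log2 scale.

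Proliferation genes fell in 8 of 24 members and rose in none, with a median log2 fold change of -0.11 and 16 members that did not pass. The share that fell, 33.3%, is near the 24.9% of all genes tested, and with library totals 15 fell. The share that rose, 0%, is below the 31.5% of all genes tested. Mki67, the proliferation antigen, was at 185, 181, 191 and 208 CPM in saline and 169, 102, 97.1 and 118 CPM under bleomycin (log2 fold change -0.65, SE 0.14, adjusted p = 0.000511). E2f1, which drives entry into S phase, was at 61.0, 58.3, 63.8 and 63.6 CPM in saline and 41.8, 32.7, 37.6 and 37.9 CPM under bleomycin (log2 fold change -0.72, SE 0.12, adjusted p = 4.94e-05). In Mki67 the value of C33 was close to the saline range while C65, C66 and C67 were clearly lower. Pcna and Cdk1 did not pass, with log2 fold changes of 0.06 (SE 0.10) and 0.21 (SE 0.11). Without C33 11 members fell, and without C66 5.

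Immediate early and heat shock genes went both ways, with 8 of 24 higher and 9 lower, shares of 33.3% and 37.5% against 31.5% and 24.9% of all genes tested. Egr1 was at 2.02, 1.72, 2.11 and 2.03 CPM in saline and 12.6, 11.96, 23.5 and 15.8 CPM under bleomycin (log2 fold change 3.01, SE 0.29, adjusted p = 1e-07). Egr3 was at 0.0517, 0.401, 0.147 and 0.388 CPM in saline and 5.20, 7.39, 5.01 and 7.16 CPM under bleomycin (log2 fold change 4.63, SE 0.46, adjusted p = 1.22e-07). Fos, Klf4 and Klf6 fell by 0.49, 0.68 and 0.64 on the log2 scale. Both Egr genes were higher in every bleomycin library. Among 21 transcription factor genes of macrophages 11 fell (52.4%) and 3 rose (14.3%), against 24.9% and 31.5% of all genes tested. Their median log2 fold change was -0.42. Rara, a retinoic acid receptor, was at 223, 211, 178 and 223 CPM in saline and 72.3, 56.6, 76.2 and 66.7 CPM under bleomycin (log2 fold change -1.62, SE 0.10, adjusted p = 4.1e-10). Runx1 was at 302, 350.1, 308 and 303 CPM in saline and 179, 136, 167 and 173 CPM under bleomycin (log2 fold change -0.95, SE 0.10, adjusted p = 3.11e-07). Both were lower in every bleomycin library. Runx3, a factor of T cells and dendritic cells, was at 0.569, 1.72, 1.81 and 0.581 CPM in saline and 18.0, 32.4, 27.2 and 31.8 CPM under bleomycin (log2 fold change 4.55, SE 0.36, adjusted p = 6.58e-09). Id2, an inhibitor of DNA binding, rose by 1.72 on the log2 scale. Spi1, which encodes PU.1 and is needed by all macrophages, did not pass, at 501, 512, 466 and 475 CPM in saline and 457, 493, 499 and 454 CPM under bleomycin (log2 fold change -0.04, SE 0.11, adjusted p = 0.783).

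Alternative activation genes rose in 9 of 14 (64.3%) and fell in 2 (14.3%), against 31.5% and 24.9% of all genes tested. Mgl2, a lectin of these cells, was at 0.879, 2.23, 1.96 and 1.21 CPM in saline and 19.6, 29.3, 26.3 and 21.0 CPM under bleomycin (log2 fold change 3.94, SE 0.24, adjusted p = 3.05e-10). Retnla was at 0, 0, 0.735 and 0 CPM in saline and 2.88, 6.92, 8.79 and 4.30 CPM under bleomycin (log2 fold change 4.86, SE 0.74, adjusted p = 2.55e-05). Against these, Stat6, the factor that signals for interleukin-4, fell by 0.44 and Klf4 by 0.68 on the log2 scale. Coagulation genes had 7 of 14 higher (50%) and 1 lower (7.14%), against 31.5% and 24.9% of all genes tested. Their median log2 fold change of 0.18 turned to -0.05 with library totals, where 6 rose and 6 fell. F3, tissue factor, was at 0.414, 0.572, 0.49 and 1.07 CPM in saline and 3.75, 5.87, 5.91 and 4.21 CPM under bleomycin (log2 fold change 2.94, SE 0.30, adjusted p = 1.8e-07). Procr, the protein C receptor, was at 3.62, 7.04, 4.95 and 4.36 CPM in saline and 21.3, 22.6, 28.1 and 28.2 CPM under bleomycin (log2 fold change 2.33, SE 0.17, adjusted p = 2.95e-09). Iron and heme genes rose in 9 of 13 (69.2%) and fell in 1 (7.69%), against the same shares of all genes tested. With library totals 7 rose and 3 fell. Slc40a1, the iron exporter ferroportin, was at 8.48, 13.6, 9.46 and 10.1 CPM in saline and 24.7, 79.2, 37.0 and 39.9 CPM under bleomycin (log2 fold change 2.12, SE 0.33, adjusted p = 2.94e-05), with the highest value in C65. Slc11a1, the phagosomal metal transporter, was at 8.84, 21.6, 8.92 and 10.7 CPM in saline and 91.5, 159, 149 and 118 CPM under bleomycin (log2 fold change 3.38, SE 0.27, adjusted p = 6.56e-09), with C71 the highest of the saline libraries.

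Several classes of non-coding genes had larger shares called lower than protein-coding genes, while processed pseudogenes and mitochondrial tRNA genes did not. Of 12620 protein-coding genes 35.3% rose and 23.5% fell, with a median log2 fold change of 0.08. Of 503 genes annotated as TEC, which are transcribed regions still to be experimentally tested, 3.58% rose and 47.3% fell (median -1.21). Antisense genes rose in 9.13% and fell in 39.5% of 471, lincRNA genes rose in 17.7% and fell in 34.0% of 418, and of 58 sense-intronic genes none rose and 39.7% fell. Processed pseudogenes, the largest of the other classes, rose in 103 and fell in 102 of 636, and of 14 mitochondrial tRNA genes 64.3% rose and none fell. The sources used here do not say that strand was used in counting, so reads of an antisense or intronic gene and of the gene it overlaps cannot be told apart. Among the lincRNA genes, AI504432 was at 710.4, 456, 595 and 698 CPM in saline and 109, 60.1, 75.5 and 84.5 CPM under bleomycin (log2 fold change -2.90, SE 0.17, adjusted p = 1.31e-10). A930007I19Rik was at 53.5, 52.7, 49.1 and 48.5 CPM in saline and 12.9, 10.9, 12.2 and 9.80 CPM under bleomycin (log2 fold change -2.15, SE 0.10, adjusted p = 1e-11). Both were lower in every bleomycin library, and they were chosen after their values were seen. The 19 tested T cell receptor V genes had at most 2 counts each over the saline males, as had 7 of the 9 tested immunoglobulin constant genes. They passed the filter through the bleomycin libraries and had to differ, so their calls are not read as a result.

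**Figure D4:**
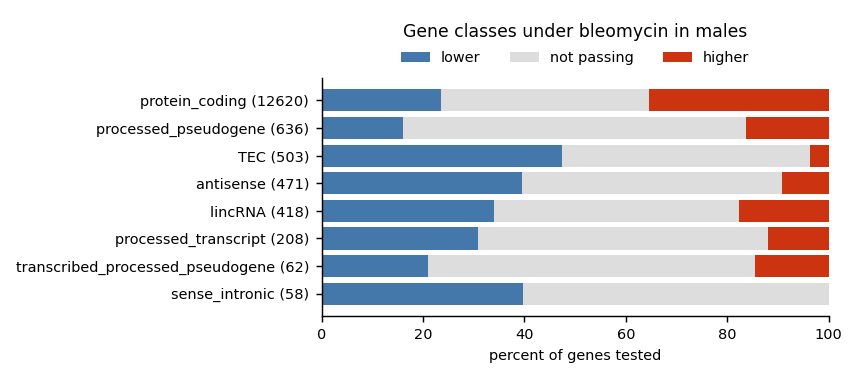
Share of tested genes in each annotated class (number tested in parentheses) that were called lower, did not pass, or were called higher under bleomycin in males, as percent of the genes tested. TEC, antisense and sense-intronic genes have larger shares called lower (47.3%, 39.5% and 39.7%) than protein-coding genes (23.5%).

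Whether the change in males differed from that in females was tested gene by gene as an interaction. It was called for 1 of 15257 genes (0.00655%), and 1202 had an unadjusted p below 0.05; DESeq2 called 23 and limma voom 0. The gene called was Slc7a11, the cystine importer that supplies glutathione synthesis. In males it stood at 32.8, 57.8, 24.5 and 39.8 CPM in saline and 88.0, 112, 89.4 and 81.2 CPM under bleomycin. In females the saline libraries C74, C75, C76 and C77 held 11.9, 10.6, 11.9 and 8.63 CPM, and the bleomycin libraries C49, C50, C68 and C69 held 100.9, 118.7, 73.1 and 102.5 CPM. All 4 saline males lay above all 4 saline females, with C71 the highest, while the bleomycin groups overlapped. The log2 fold change was 1.26 (SE 0.20) in males and 3.20 (SE 0.22) in females, a difference of -1.93 (SE 0.29, adjusted p = 0.0436). That adjusted p was 0.0526 with library totals, 0.0549 with the stricter filter, 0.206 with limma voom and 8.72e-07 with DESeq2, and over all alternatives it ran from 1.07e-08 with no filter to 0.206. With each of the 16 libraries left out in turn the call was lost in 12 cases, with an adjusted p of up to 0.183, and was kept without C71, C72, C65 or C68. The difference itself lay between -2.10 and -1.68 in these 16 fits.

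**Figure D5:**
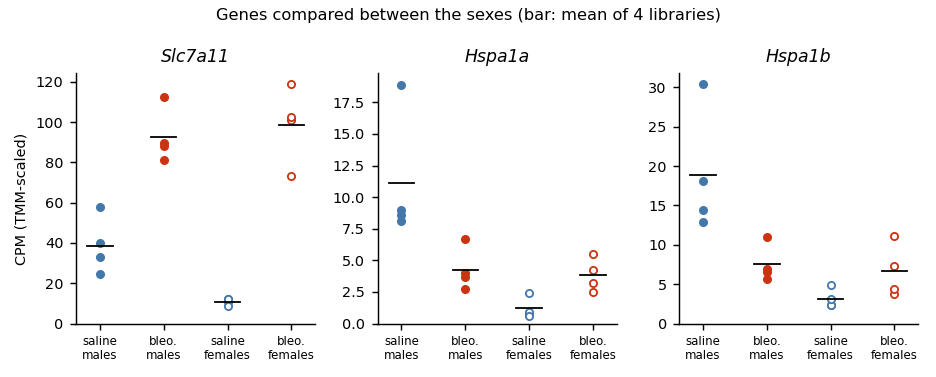
CPM of Slc7a11, Hspa1a and Hspa1b in the 4 libraries of each group (points) with the group mean (bar). Saline males lie above saline females in all 3 genes, and the bleomycin groups of the sexes overlap.

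Of the 8614 genes called in males 5889 were called with the same sign in females and 3 with the opposite sign, and none of the 2722 called only in males was called in the interaction. Across genes the fold changes of the sexes had a Pearson correlation of 0.946, where genes are not independent replicates. The 3 with opposite signs were Hspa1a, Hspa1b and Rpap3. Hspa1a, an inducible heat shock protein, was at 8.95, 18.9, 8.58 and 8.09 CPM in saline and 3.67, 2.73, 3.97 and 6.71 CPM under bleomycin in males (log2 fold change -1.37, SE 0.37, adjusted p = 0.0042). The log2 fold change of Hspa1a was 1.70 (SE 0.42) in females. Hspa1b, a near-identical copy whose reads can be split uncertainly, was at 18.0, 30.4, 12.8 and 14.4 CPM in saline and 5.72, 6.98, 6.602 and 10.97 CPM under bleomycin in males (log2 fold change -1.32, SE 0.33, adjusted p = 0.00255). In females its log2 fold change was 1.09 (SE 0.36). C71 was the highest saline male in both genes. Their interactions did not pass, with adjusted p of 0.265 and 0.323, nor did that of Rpap3, with 0.479.

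The authors' deposited table of the male comparison lists 11069 genes, all with an unadjusted p up to 0.05, and calls 9836 of them at an adjusted p below 0.05, 5502 higher and 4334 lower. Of its genes 9641 were tested here, and the sign in the authors' deposited table matched in all of them. Calls were shared for 8366 genes, which is 85.1% of all 9836 calls in the authors' deposited table and 97.1% of those made here. Of those 9836 calls, 8845 were of genes tested here, so most of the calls not shared were of genes below the filter. The authors' deposited table gives Dnah11 a log2 fold change of -6.24, Mmp14 one of 6.70 and Slc7a11 one of 1.25, against -6.19, 6.70 and 1.26 here.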

How the data were processed

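RNA sequencing counts of bronchoalveolar lavage cells were used from 4 saline males and 4 bleomycin males, and from 4 saline and 4 bleomycin females for the spread and the interaction. The authors deposited un-normalized counts, 1 row per Ensembl gene. Per the submitters' processing notes the tools include HISAT2 2.0.5, fastp 0.12.2 and featureCounts 1.5.0-p3, with DESeq2 listed but given no version, and the builds mm9 and mm10 are named without a role; annotation and strand setting are not given in the sources used here. The log2 fold changes and p-values of the male comparison table were deposited by the authors and cover genes whose unadjusted p is at most 0.05. The FPKM values deposited by the authors were used in no test.

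Genes were kept with filterByExpr by group (minimum count 10). The 16 libraries were fitted together, with 1 coefficient for each group (edgeR 4.0.16, R 4.3.3, TMM factors, quasi-likelihood F test, 12 residual degrees of freedom, Benjamini-Hochberg over 15257 genes, called below 0.05), and the script was tested on simulated data. The SE is the log2 fold change divided by the square root of F. Alternatives were library totals alone, median-of-ratios factors, no filter, at least 1 CPM in 4 libraries, DESeq2 1.42.0, limma voom (limma 3.58.1), the male libraries alone and each library left out. A gene absent from a group was set to a floor of 3 counts over that group (0.0385 CPM in the saline males), which covers counting error only. Counts of genes that share a symbol (8 tested genes) were kept apart by identifier, and the list member with such a symbol, Aldoa, was left out of its list.

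Genes were named by rule: the 15 largest rises and falls among called protein-coding genes whose groups did not overlap and whose higher group had a mean of at least 20 CPM, the 8 largest gains and losses in mean CPM, genes called in the interaction, up to 4 called members of each list with the largest change and up to 3 called against its main direction, and the 10 most variable genes among bleomycin males. Further list members in the text, among them those that did not pass, were chosen after their values were seen. The 39 lists and the rules were chosen with earlier results of these data known.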

Additional observations from a re-analysis of the deposited data

Results flagged for a closer look

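Each group of 4 male libraries was checked, for the genes named in the text and the list levels, for a library that stood far from the other 3 (a gap to the nearest of them, as a share of the group's range, above Dixon's 95% critical value). This held in 32 of 469 groups (6.82%). Chance gives about 1 in 20 for genes not picked by their values. Some genes here were named for their spread or after their values were seen, so that rate is no base for them. C71 was the highest saline library in 12 of them. Its values were 2277 CPM for Axl, 452.6 for Car4, 4216 for Ctsd, 11.3 for Cxcl16, 19.9 for Fscn1, 5667 for Fth1, 162.7 for Gapdh, 18.9 for Hspa1a, 926.5 for Prdx1, 350.1 for Runx1, 21.6 for Slc11a1 and 432.4 for Spp1. Among them are genes that rose and genes that fell under bleomycin.

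C33 was the highest bleomycin library in 6, with 2047 CPM for Flna, 9.34 for Spaca6, 4.76 for Tgfb2, 3.06 for Tppp, 89.2 for Tppp3 and a level of 6.08 (mean log2(CPM + 1)) for fatty acid synthesis and desaturation. It was the lowest in 2, with 174.8 CPM for Bhlhe41 and 4.15 for Foxp3. The 5 genes in which C33 was highest all fell under bleomycin, so C33 was the bleomycin library nearest to saline in them.

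C65 was the highest bleomycin library for Hba-a2 at 199.4 CPM, Hbb-bt at 206.9, Pcna at 209.5 and Soat1 at 511.1, and the lowest for Fpr2 at 22.4. C66 was highest for Cxcl2 at 26.5 CPM, and C67 for Krt8 at 25.1. In saline, C70 was lowest for C1qb at 2.02 CPM, C72 lowest for Cpne5 at 214, and C73 highest for Cidec at 378.7, Cmklr1 at 1.02 and Nlrp3 at 83.3.

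The change of Slc7a11 was called different between the sexes, by -1.93 on the log2 scale (males minus females, edgeR's quasi-likelihood test, adjusted p = 0.0436). The call was lost with library totals (0.0526), with at least 1 CPM in 4 libraries (0.0549), with limma voom (0.206) and in 12 of the 16 fits that left out 1 library, so it rests on single libraries and settings. With 4 libraries a group, every saline male lay above every saline female, and the bleomycin groups overlapped.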

How the results depend on the processing

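The count of genes higher under bleomycin stayed within 1.5 times the main count under each alternative run, at 3416 with library totals alone and 4305 to 5312 under the other settings. The count of lower genes moved to 6130 with library totals alone and lay at 3694 to 4050 under the other settings. Leaving out each male library gave 4366 to 4934 higher and 3371 to 3993 lower genes, lowest without C65 and highest without C33. The count of genes called in the interaction was 0 with library totals alone, 15 with no filter on low counts, 0 with at least 1 CPM in 4 libraries, 23 with DESeq2, 0 with limma voom, and 0 to 1 with 1 library left out. Of 3477 values of 233 genes named by rule under the alternatives, 3425 kept their direction and side of the threshold, 51 lost the call, 1 gained it and none changed direction. The 51 belong to 14 genes, of which Apoc1, Ch25h, Lpl and Slc27a1 lost the call with library totals alone. No paired analysis was possible because the replicate codes are not shared between the groups. With 4 libraries a group and 16471022 to 24225885 counts each, a gene with no saline count is known only to lie below 0.0385 CPM.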
